A study of Homo sapiens with 4 samples.

Results

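ETS1, FLI1, ETV6 and ELF1 are 4 genes of the ETS family that are known for their part in lymphoid and other blood cells, and they are described here by their cohesin and CTCF peaks and by the chromatin loops that end at them. They are 4 of the 19970 protein-coding genes of GENCODE release 44 on chromosomes 1 to 22 and X, and the rule that takes them, by family and cell type, uses no measured value. A window was drawn from 100 kb before to 100 kb after each gene body, peaks were counted where their summit fell in it, and loops were counted where an anchor touched it. Loops with an anchor within 5 kb of an annotated transcript start were kept apart. The data come from HG00731, an established human lymphoblastoid cell line (LCL, B cells immortalised with Epstein-Barr virus) from the 1000 Genomes Project. HiChIP, which joins a Hi-C ligation to an immunoprecipitation, was performed with an antibody against the cohesin subunit SMC1 on cells fixed with formaldehyde and then with the longer cross-linker EGS (SMC1 FA-EGS HiChIP), and with an antibody against CTCF on cells fixed with formaldehyde alone (CTCF HiChIP). No treatment or altered genotype was compared, so both sets share the same unmodified cells. There are 2 biological replicates of each target, 4 samples in all, but each target has 1 peak list and 1 loop list made from both replicates together. The spread between replicates can therefore not be given, no test between the targets was made, and the intervals below cover counting error only.

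ETS proteins share a winged helix-turn-helix domain that binds DNA around a GGAA core. ETS1 is known as a factor of T, B and natural killer cells, FLI1 as a factor of blood stem cells and megakaryocytes that is joined to EWSR1 in Ewing sarcoma, ETV6 as a repressor that is fused to RUNX1 in childhood B-cell leukaemia, and ELF1 as an activator in T and B cells. Cohesin, the ring complex that holds SMC1, is thought to extrude chromatin loops, and CTCF, a zinc finger protein, is known to halt it, preferentially where pairs of CTCF sites point towards each other. RNA was not measured in these files, so neither the lymphoblastoid label nor the level of the 4 genes could be checked by markers.

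The whole lists held 96855 SMC1 and 62869 CTCF peaks, and 28012 loops labelled SMC1 and 80487 labelled CTCF, which carry 788356 and 2666327 read pairs. The label of each loop list disagrees with the table of loop numbers that accompanies the study, where each number is given for the other target. The number of peaks inside loop anchors, which those tables also give, matches these files only with the loop lists exchanged, within 1 peak for each target. Computed here, 49637 SMC1 peaks lay in anchors of the list labelled CTCF and 17624 CTCF peaks in anchors of the list labelled SMC1. By both counts the list labelled CTCF holds the SMC1 loops and the list labelled SMC1 the CTCF loops. The labels are kept below as names of the lists, and a loop list should be read as that of the other target.

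On hg38, ETS1 lies on the minus strand at chr11:128458761-128587558 and FLI1 beside it on the plus strand at chr11:128686535-128813267, so that the 2 genes point away from each other across 98.976 kb. ETV6 lies at chr12:11649674-11895377 on the plus strand and is the longest of the 4 at 246 kb. ELF1 lies at chr13:40931924-41061440 on the minus strand, and its most upstream start is 69 bp from the start of WBP4, a gene of a splicing factor. The other 3 genes are 127 to 130 kb long, against a median of 27.5 kb for all protein-coding genes, and long genes offer more room for peaks and starts. The windows of ETS1 and FLI1 share 101 kb, and their 12 SMC1 and 4 CTCF peaks there were counted for both genes but once in the sums. The 4 windows together cover 1330 kb.

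Sequences from hg38 are given first for the places on which the results turn. The first set shows DNA within CTCF peaks that holds the core letters of the CTCF motif (CC, 3 free bases, AG, 2 free bases and GGC), which are in capitals with 14 bases on either side and are read on the strand of the site.
FLI1 intron, chr11:128758094-128758133, plus strand: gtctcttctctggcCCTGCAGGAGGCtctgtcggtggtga
FLI1 intron, chr11:128776653-128776692, minus strand: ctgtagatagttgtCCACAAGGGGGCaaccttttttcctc
FLI1 downstream flank, chr11:128831334-128831373, minus strand: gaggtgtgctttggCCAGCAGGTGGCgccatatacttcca
FLI1 downstream flank, chr11:128859687-128859726, minus strand: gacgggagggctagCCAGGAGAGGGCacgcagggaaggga
FLI1 downstream flank, chr11:128859897-128859936, plus strand: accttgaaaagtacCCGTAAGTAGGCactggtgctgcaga
FLI1 downstream flank, chr11:128906065-128906104, minus strand: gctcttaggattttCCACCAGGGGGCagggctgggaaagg
ELF1 intron, chr13:40974853-40974892, plus strand: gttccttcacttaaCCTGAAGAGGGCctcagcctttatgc
The first belongs to the peak at which most FLI1 start loops end, the next 5 to 4 strong peaks further along FLI1, and the last to the strongest CTCF peak of ELF1. Of the 5 later FLI1 sites, 4 are on the minus strand and face the first, and 1 is on the plus strand, in the same peak as 1 of the 4. The other 3 sites found in CTCF peaks of the windows, 2 at ETV6 and 1 at ELF1, are on the plus strand.

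The second set shows the RefSeq promoters that hold a peak summit. Of the 4 genes, 2 have an entry in the RefSeq promoter table (hg38), ETV6 with 1 promoter and ELF1 with 3. The 11 bases around the summit are in capitals.
ETV6, chr12:11649424-11649723, plus strand, SMC1 summit: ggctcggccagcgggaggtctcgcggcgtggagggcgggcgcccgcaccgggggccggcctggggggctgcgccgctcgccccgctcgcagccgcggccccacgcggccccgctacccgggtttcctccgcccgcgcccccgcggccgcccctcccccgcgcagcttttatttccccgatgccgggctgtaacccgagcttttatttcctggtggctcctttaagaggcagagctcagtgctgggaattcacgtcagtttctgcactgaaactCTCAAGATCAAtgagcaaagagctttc
ELF1, upstream promoter, chr13:41061337-41061636, minus strand, CTCF summit: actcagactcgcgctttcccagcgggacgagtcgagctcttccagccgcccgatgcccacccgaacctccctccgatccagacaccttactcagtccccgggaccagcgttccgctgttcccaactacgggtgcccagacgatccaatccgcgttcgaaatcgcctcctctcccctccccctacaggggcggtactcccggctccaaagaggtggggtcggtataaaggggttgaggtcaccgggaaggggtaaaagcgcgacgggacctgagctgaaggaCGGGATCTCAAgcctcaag
Neither of them holds the letters of an ETS site, ACNGGAAG, on either strand, which stood in 7.29% of all 34961 RefSeq promoters of 300 bases. They occur once, on the minus strand, in 1 of the other 2 ELF1 promoters, chr13:40982850-40983149, which no peak of either target touches.

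The third set shows the 201 bases at the 2 strongest intronic SMC1 peaks that no CTCF peak overlaps, with the 11 bases at the summit in capitals.
ETS1 intron, chr11:128551952-128552152, plus strand: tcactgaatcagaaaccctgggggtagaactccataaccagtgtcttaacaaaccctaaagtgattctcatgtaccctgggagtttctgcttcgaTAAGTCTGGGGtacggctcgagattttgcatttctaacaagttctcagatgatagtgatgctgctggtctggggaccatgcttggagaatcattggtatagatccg
ETV6 intron, chr12:11762201-11762401, plus strand: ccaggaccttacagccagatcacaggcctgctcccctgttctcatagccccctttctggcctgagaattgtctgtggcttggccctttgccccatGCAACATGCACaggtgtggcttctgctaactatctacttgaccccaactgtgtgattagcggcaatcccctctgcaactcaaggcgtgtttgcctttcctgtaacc
Neither sequence holds the CTCF letters, the ETS letters or TGTGGTT, the letters of a RUNX site. Both promoter summits above lie on GATC, the letters that DpnII cuts, and DpnII was the enzyme of these HiChIP libraries. GATC stood within 5 bp of the summit in 52 of the 156 SMC1 peaks of the windows (33.3%, 95% Wilson interval 26.4 to 41.1) against 32.1% of all SMC1 peaks, and 1 kb aside in 3 of 156 (1.92%, 0.656 to 5.50). Among the CTCF peaks it was 10 of 68 (14.7%, 8.19 to 25) against 11.2% of all CTCF peaks. Summit positions are therefore given as deposited, and the part of the cut sites in the peaks was not tested.

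SMC1 peaks were dense at the 4 genes, and most of them had no called CTCF peak beside them. The study gives fewer reads for CTCF than for SMC1, and fixation differed. A missing CTCF peak therefore need not mean that CTCF was absent. The 4 windows held 156 SMC1 and 68 CTCF peaks, and 50 of the SMC1 peaks overlapped a CTCF peak by at least 1 bp (32.1%, 25.2 to 39.7), below the 47.1% of all SMC1 peaks. Seen from the other side, 54 of the 68 CTCF peaks overlapped an SMC1 peak (79.4%, 68.4 to 87.3), near the 75.9% of all CTCF peaks. The enrichment of a peak, which MACS3 gives as the ratio of its summit to the surrounding reads, had a median of 2.63 over the SMC1 peaks (rank interval 2.43 to 2.89) and 3.72 over the CTCF peaks (3.29 to 4.30), against 3.32 and 5.01 in the whole lists. The q-value of a peak, given as -log10 so that a larger number is stronger, had a median of 27.6 in the 50 SMC1 peaks with CTCF and 7.83 in the 106 without, against 34.1 and 7.40 for all peaks of these kinds.

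ETS1 had 45 SMC1 peaks in its window, which is 13.7 per 100 kb and more than 98.1% of protein-coding genes. ETV6 had 60, or 13.5 per 100 kb (97.8%), FLI1 32, or 9.79 (85.4%), and ELF1 31, or 9.41 (83.2%). The median protein-coding gene had 5.57 SMC1 peaks per 100 kb. ETS1 and ETV6 were thus close to each other at the high end, and FLI1 and ELF1 were close to each other below them. CTCF peaks were less apart, with 5.82 per 100 kb at FLI1, 5.47 at ETS1, 4.86 at ELF1 and 4.26 at ETV6 against a median of 3.76.

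A CTCF peak overlapped 14 of the 32 SMC1 peaks of FLI1 (43.8%, 28.2 to 60.7), 11 of the 31 of ELF1 (35.5%, 21.1 to 53.1), 17 of the 60 of ETV6 (28.3%, 18.5 to 40.8) and 11 of the 45 of ETS1 (24.4%, 14.2 to 38.7). These intervals overlap one another, so the order of the 4 genes is not resolved by the counts. Those of ETV6 and ETS1 lie below the 47.1% of the whole list.

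**Figure D1:**
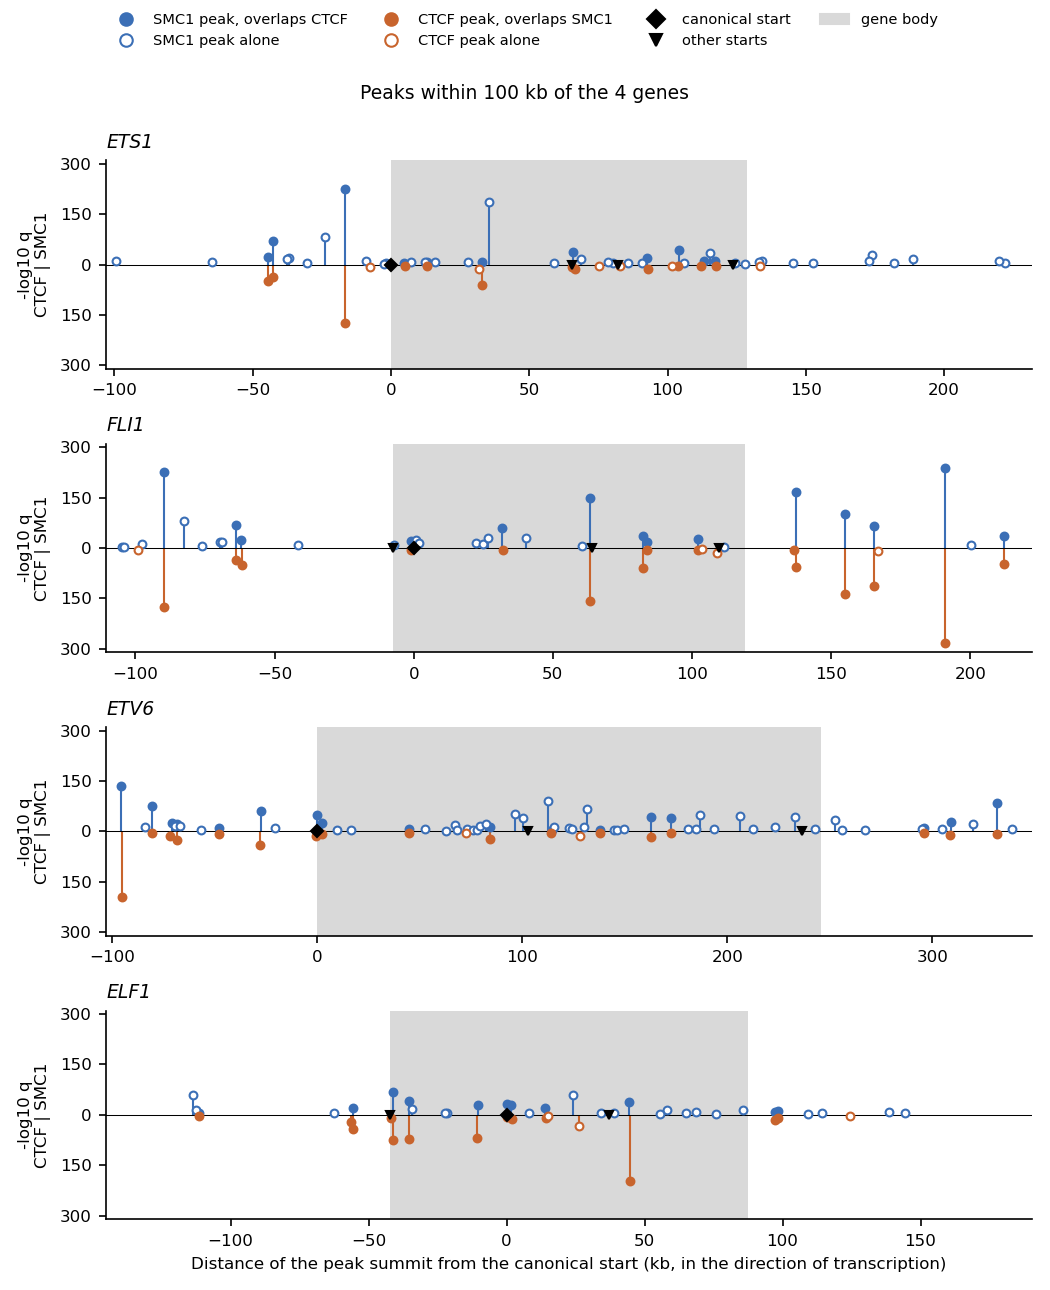
Peaks in the window of each gene, with the distance of the summit from the canonical start on the x axis (kb, in the direction of transcription) and -log10 q on the y axis, SMC1 upwards and CTCF downwards. Filled points overlap a peak of the other target, and open SMC1 points without CTCF fill the bodies of ETS1 and ETV6, while the 5 tallest SMC1 points of FLI1 are filled.

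In the ETS1 window the strongest SMC1 peak had its summit at chr11:128604294, 16.7 kb upstream of the canonical start, with a -log10 q of 226 and a fold of 7.20. The CTCF list had a summit at the same base, with a -log10 q of 174 and a fold of 12.3. The next SMC1 peak, at chr11:128552052 in an intron, reached 186 with a fold of 6.25, above 98.1% of all SMC1 peaks, and no CTCF peak overlapped it. The nearest CTCF summit was 2501 bp away, at chr11:128554553, with a -log10 q of 59.8. Away from these places ETS1 carried mostly weak SMC1 peaks, since the median of its 45 was 8.32.

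At FLI1 the 5 strongest SMC1 peaks of the window all overlapped a CTCF peak. Its strongest peaks lay 191 kb downstream of the canonical start, with CTCF at chr11:128884938 (-log10 q 284, fold 12.5) and SMC1 at chr11:128884896 (237, fold 7.61). Inside the gene, both lists had a summit at chr11:128757445, with a -log10 q of 157 for CTCF and 150 for SMC1. The median over the CTCF peaks of FLI1 was 37.1, against 5.63 at ETS1, 8.86 at ETV6 and 12.5 at ELF1.

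At ETV6 the strongest peaks also marked the edge of the window, with CTCF at chr12:11554174 (195) and SMC1 at chr12:11554155 (136), about 95.5 kb upstream of the canonical start. The gene body itself held 39 SMC1 summits and 9 CTCF summits. The strongest SMC1 peaks there, at chr12:11762301 (89.6) and chr12:11781186 (67.3), had no CTCF peak, and the strongest CTCF peak in the body, at chr12:11734193, reached 22.8.

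ELF1 had its strongest CTCF peak in an intron at chr13:40974763, with a -log10 q of 196 and a fold of 13. SMC1 at this place reached 37.1 with a fold of 3.25. Its strongest SMC1 peak was at the upstream start, with a summit at chr13:41060529 and a -log10 q of 67.2, where CTCF reached 75. In each of the other 3 windows the strongest SMC1 peak had a -log10 q over 100.

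The CTCF letters lay within 50 bp of the summit in 3 of the 68 CTCF peaks (4.41%, 1.51 to 12.2), against 7.15% of all CTCF peaks and 1.31% of stretches 1 kb aside. Since GATC lay within 5 bp of some CTCF summits, 10 of these 68 (14.7%), the whole peak was also searched, a choice made after the data were seen. The letters then stood in 8 of the 68 (11.8%, 6.08 to 21.5) against 25.6% of all CTCF peaks. In equal intervals 5 kb aside they stood in 3 of 68 (4.41%) and in 5.76% over all CTCF peaks. Of these 8, FLI1 had 5 among its 19 CTCF peaks, ETV6 2 of 19 and ELF1 1 of 16. ETS1 had 0 of 18, which by the rule of 3 (3 of 18, a one-sided bound and not a Wilson interval) allows up to 16.7%. The search asked for 7 exact letters. The sequences at the ETS1 summits chr11:128555794 and chr11:128520868 hold all of them but the first C, so a CTCF site need not be absent. Near matches were not counted elsewhere. None of the 4 ETS1 CTCF peaks with a -log10 q of at least 30 held the letters. Among all peaks that strong, 43.7% did, and 6 of the 19 in the 4 windows (31.6%, 15.4 to 54.0).

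Each of the 4 genes had an SMC1 and a CTCF peak within 5 kb of a transcript start, as did 76.1% of all protein-coding genes for SMC1 and 66.2% for CTCF, so these calls do not set the genes apart. Which start carried the signal differed. At the canonical start of ETS1, chr11:128587558, the 3 SMC1 peaks within 5 kb reached a -log10 q of 5.97 and the CTCF peak 3.36. At the internal ETS1 starts, chr11:128522201-128522310, from which 4 shorter protein-coding transcripts are annotated, SMC1 reached 38.8 and CTCF 12.5. This internal group of ETS1 starts thus had the stronger peaks. The internal starts at chr11:128505394 and chr11:128463950 did not, with SMC1 at 6.40 and 5.60. CTCF reached 4.44 at the first of them and had no peak within 5 kb of the second.

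FLI1 had SMC1 at 23 and CTCF at 7.27 within 5 kb of its canonical group of starts. The start at chr11:128758106 carried far more, since the shared peak described above lies 661 bp from it. That start belongs to FLI1-208, a retained-intron transcript with no annotated protein, and the signal there need not concern a promoter. ETV6 had an SMC1 summit 28 bp from its canonical start (-log10 q 49.2, fold 3.11) beside a CTCF peak of 14.8. At both other ETV6 starts SMC1 reached 39.1 and 41.9, and no CTCF summit lay within 5 kb. ELF1 had an SMC1 summit 24 bp from its canonical start, chr13:41019316 (33.7), where CTCF reached 10.8.

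**Figure D2:**
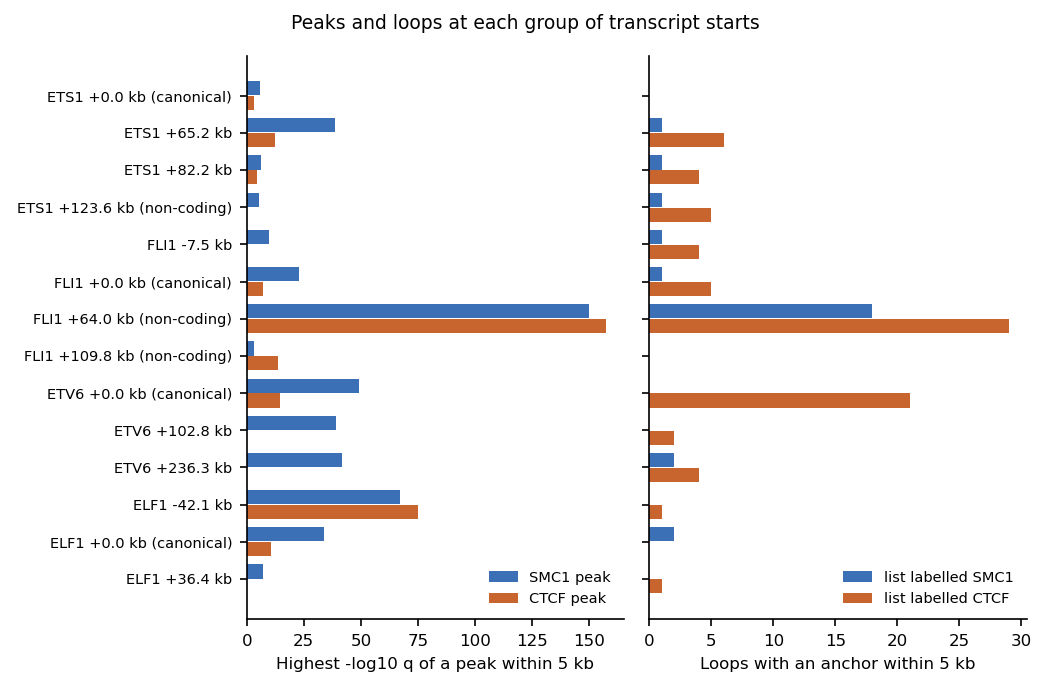
Peaks and loops at each group of transcript starts, named by gene and distance from the canonical start (kb); the left bars give the highest -log10 q of a peak within 5 kb and the right bars the number of loops with an anchor within 5 kb. The internal non-coding FLI1 start has the longest bars on both sides, the canonical ETV6 start has 21 loops in the list labelled CTCF and 0 in the other, and the canonical ETS1 start has 0 in both.

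Loops with an anchor in the windows numbered 60 among loops labelled SMC1 and 234 among those labelled CTCF, with 1347 and 8356 read pairs. FLI1 had 41 and 98, ETS1 27 and 85, ETV6 8 and 94, and ELF1 3 and 8, and 19 and 51 of these touched the windows of both ETS1 and FLI1. By loops labelled CTCF, the windows of FLI1, ETV6 and ETS1 held more loops than 99.8%, 99.7% and 99.4% of protein-coding genes, while that of ELF1 held more than 30.8%. By loops labelled SMC1 the ranks were lower for 3 of the genes, with 95.8% for FLI1, 89.2% for ETS1 and 62.2% for ETV6, and 44.9% for ELF1. Loops that share an anchor or lie in neighbouring bins are not independent of each other, and a window on a long gene is wider, so the counts are a description. MAPS, the loop caller, also took the called peaks as input, so a window dense in peaks offers more pairs to call. Loop counts and ranks are thus not separate from the peak density above.

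Loops at transcript starts numbered 25 among loops labelled SMC1 and 73 among those labelled CTCF. All 4 genes had such a loop in both lists, as did 35.1% and 59% of protein-coding genes. FLI1 had 18 and 31, ETS1 3 and 15, ETV6 2 and 25, and ELF1 2 and 2. When starts of protein-coding transcripts alone were used, a choice made after the data were seen, FLI1 kept 1 and 6, and the other genes 2 and 10 (ETS1), 2 and 25 (ETV6) and 2 and 2 (ELF1). At the canonical starts alone, where 27.8% and 50.5% of protein-coding genes had a loop, the counts were 0 and 0 at ETS1, 1 and 5 at FLI1, 0 and 21 at ETV6 and 2 and 0 at ELF1.

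The far anchors of these start loops held no start of another protein-coding gene. The anchor away from the start held no transcript start of a different protein-coding gene in any of the 4 genes in either list, while among the genes with a start loop 57.9% had such a partner by the loops labelled SMC1 and 62.3% by those labelled CTCF. Of the 31 FLI1 start loops labelled CTCF, the other anchor held peaks of both targets in 13, an SMC1 peak alone in 7 and no peak in 7, and both ends lay at FLI1 starts in 4.

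The FLI1 loops met in 1 anchor. The bin chr11:128755001-128760000, which holds the shared peak at chr11:128757445 and the first CTCF letters printed above, was an anchor of 23 loops with 1536 read pairs in the list labelled CTCF and of 18 loops with 505 read pairs in the list labelled SMC1. These 18 are every FLI1 start loop of that list. In the list labelled CTCF, 22 of the 23 ran towards ETS1 and 1 ran away from it, and in the list labelled SMC1 it was 17 and 1. Spans ranged from 25 to 585 kb and from 15 to 585 kb.

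With the most read pairs among these in the list labelled CTCF, the loop from chr11:128630001-128635000 had 187 (95% Poisson interval 161 to 216) where the MAPS background expected 26.4, and 41 against 8.25 expected in the list labelled SMC1. The most read pairs in the list labelled SMC1 were 59 against 10.6 expected, from chr11:128725001-128730000 inside FLI1. The loop to the canonical FLI1 bin, chr11:128690001-128695000, had 79 read pairs against 17.0 expected, and 21 against 5.72 in the list labelled SMC1. The single loop to the other side ended at chr11:128830001-128835000, with 85 read pairs against 29.8 expected, and 29 against 10.7. Its anchors hold the plus-strand letters at the FLI1 intron and the minus-strand letters at chr11:128831348-128831359, so the sites point towards each other. The plus-strand letters lie 668 bp from the summit of their peak. They point away from the loops of the FLI1 anchor that ran towards ETS1, 22 labelled CTCF and 17 labelled SMC1.

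Over all 234 window loops labelled CTCF, 10 had CTCF letters in a CTCF peak at both anchors. Of these, 4 pairs pointed towards each other, 4 pointed the same way, 0 pointed apart and 2 had letters on both strands at 1 anchor. There were 4 such loops labelled SMC1, with 2 towards each other and 1 the same way. One of the pairs pointing towards each other ran from chr11:128170001-128175000, beyond ETS1, to chr11:128830001-128835000 over 660 kb, with 52 read pairs against 3.45 expected. Letters outside a called peak were left out of these counts. Minus-strand letters at chr11:128693207-128693218, near a CTCF summit at the canonical FLI1 starts, lie just beyond the end of that peak, chr11:128693203. With them, the loop from chr11:128690001-128695000 to chr11:128755001-128760000, found in both lists, would have letters that point apart.

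Loops in the ETS1 window mostly had an end outside the gene. Both anchors lay in ETS1 in 1 of the 85 labelled CTCF and 0 of the 27 labelled SMC1. In the window, 23 loops labelled CTCF and 12 labelled SMC1 ended at chr11:128290001-128295000, 295 kb downstream of the canonical start, where both targets had a peak. Some of these ran to bins beside ETS1 and did not touch the gene. The loop with the most read pairs, 230 (201 to 262) against 99.2 expected, joined chr11:128600001-128605000, which holds the strongest ETS1 peak, to chr11:128625001-128630000, which held 2 SMC1 peaks and no CTCF peak. It lay between ETS1 and FLI1, touched neither gene and also led in the FLI1 window. It had 61 read pairs (46.7 to 78.4) against 20.7 expected in the list labelled SMC1, where it led too. Of the 15 ETS1 start loops labelled CTCF, the strongest joined the internal starts in chr11:128520001-128525000 to this SMC1 bin, with 103 read pairs (84.1 to 125) against 32.5 expected.

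ETS1 and FLI1 were also joined to each other. In each list 2 loops ran from the ETS1 body to the FLI1 body, from chr11:128550001-128555000 and from chr11:128555001-128560000 to the FLI1 anchor at chr11:128755001-128760000. They had 38 and 29 read pairs against 18.7 and 11.4 expected in the list labelled CTCF, and 13 and 13 against 3.25 and 3.21 in the list labelled SMC1. The first of the ETS1 bins holds the SMC1 peak printed above that had no CTCF peak, beside the CTCF peak at chr11:128554553. From the 98.976 kb between the genes, 9 loops labelled CTCF ran into ETS1 and 12 into FLI1, and 1 and 6 in the list labelled SMC1.

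The canonical start of ETV6 had 21 loops in the list labelled CTCF, the most of the 4 genes. All 21 loops labelled CTCF there ran downstream, 13 of them from the bin chr12:11650001-11655000 and 8 from chr12:11645001-11650000, which holds the start itself. Of the 13, which had 18 to 96 read pairs and 611 in all, the other anchor overlapped the ETV6 body in 9. The loop with the most, 96 (77.8 to 117) against 29.3 expected, ended 75 kb away at chr12:11725001-11730000, where SMC1 but not CTCF had a peak. The next, with 93 read pairs against 31.4, ended at chr12:11760001-11765000, the bin of the ETV6 SMC1 peak printed above. An SMC1 peak without CTCF in the anchor was found at 6 of the 13 other ends, peaks of both targets at 6 and no peak at 1.

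No loop labelled SMC1 used either of these ETV6 bins, and none of the 21 had a match in that list within 15 kb. The 2 ETV6 start loops labelled SMC1 began near the last start, and 7 of the 8 ETV6 loops in that list ended at chr12:12005001-12010000, 358 kb downstream of the canonical start. Loops labelled CTCF that ended at that bin numbered 17.

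ELF1 had few loops. All 3 labelled SMC1 lay within the gene and used chr13:40970001-40975000, the anchor of its strongest CTCF peak, with 19 to 21 read pairs each. They ran over 45 kb to the canonical start (21 read pairs, 4.68 expected), over 40 kb to the bin beside it and over 80 kb to chr13:41050001-41055000. In the list labelled CTCF the same anchor was joined over 90 kb to the upstream start, in the bin shared with WBP4, with 27 read pairs against 12.2 expected. The ELF1 window's loop with the most read pairs, 38 (26.9 to 52.2) against 4.09 expected, did not touch ELF1 and joined the bins of KBTBD6 and KBTBD7, which encode adaptors of a ubiquitin ligase.

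**Figure D3:**
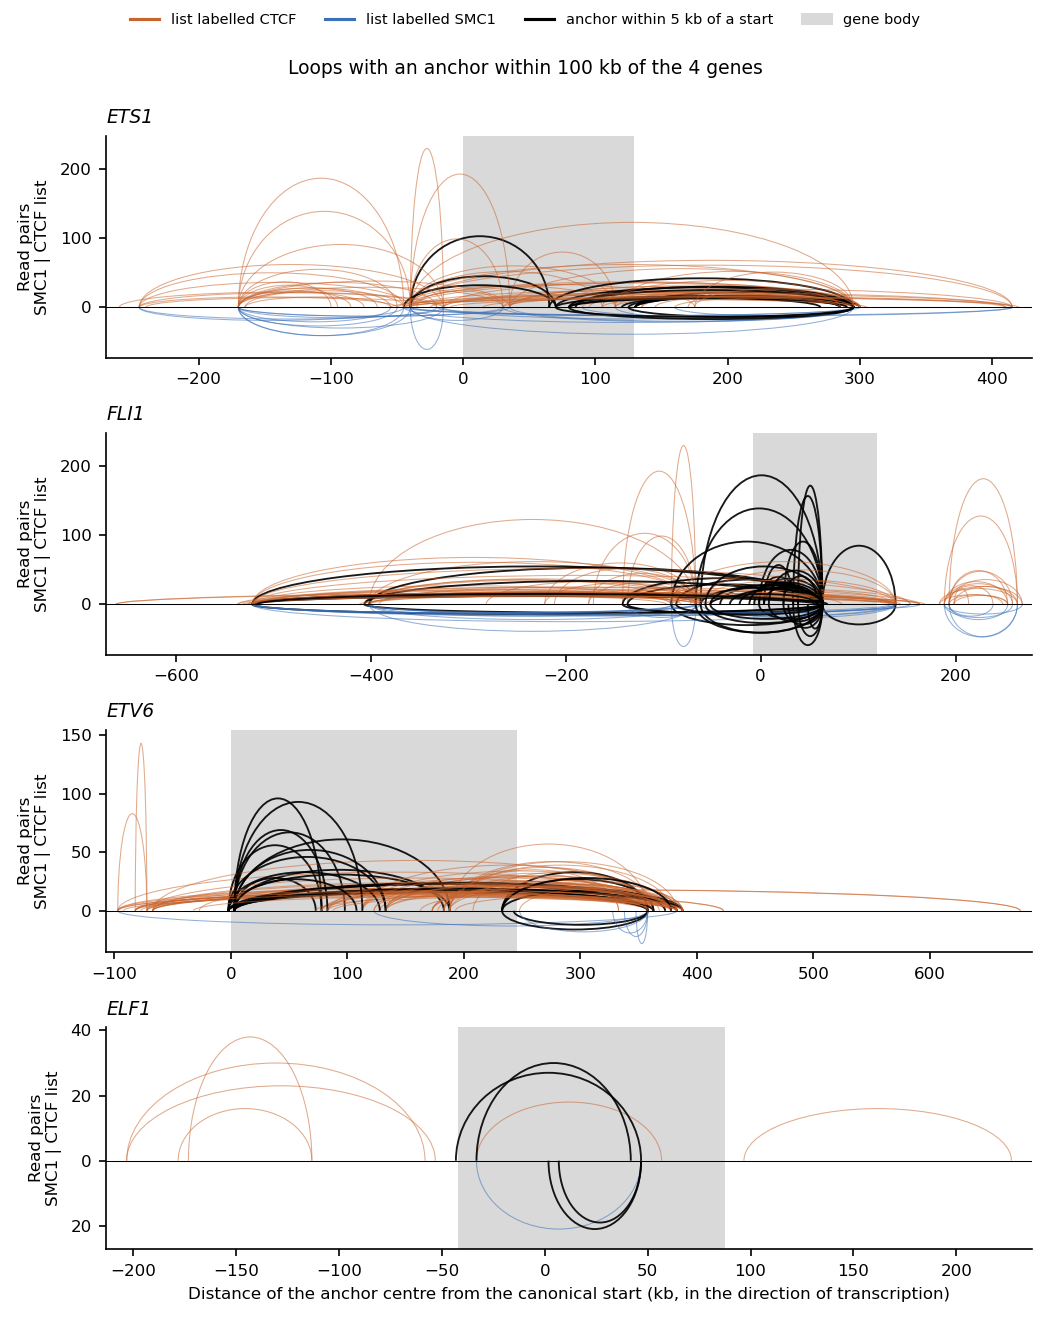
Loops with an anchor in the window of each gene, as arcs between anchor centres by distance from the canonical start (kb, in the direction of transcription); the height of an arc is its number of read pairs, upwards for the list labelled CTCF and downwards for the list labelled SMC1, on an axis of its own for each gene. Black arcs have an anchor within 5 kb of a start, and they gather at 1 point inside FLI1 and fan out downstream from the ETV6 start.

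How often a loop of one list had a loop of the other list near it differed between the genes. A loop could serve as the match of several loops, so a match need not be the same loop. Of the 60 loops labelled SMC1, 55 matched a loop labelled CTCF within 15 kb at both anchors (91.7%, 81.9 to 96.4), as did 91.7% of that whole list. In the other direction 133 of 234 matched (56.8%, 50.4 to 63.0), against 53.4% of the whole list labelled CTCF. By gene this was 73 of 85 at ETS1 (85.9%, 76.9 to 91.7), 82 of 98 at FLI1 (83.7%, 75.1 to 89.7), 3 of 8 at ELF1 (37.5%, 13.7 to 69.4) and 16 of 94 at ETV6 (17.0%, 10.8 to 25.9). Intervals of ETS1 and FLI1 lie above the share of the whole list and that of ETV6 below it. The windows held 27 (ETS1), 41 (FLI1), 3 (ELF1) and 8 (ETV6) loops labelled SMC1. At ETS1 and FLI1 the matched loops thus outnumber the loops they could match there. The share depends on how closely loops gather as well as on loops held in common.

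The lists differ in read pairs, so the share was also taken within loops of the list labelled CTCF with at least its median of 23 read pairs. It was then 7 of 50 at ETV6 (14%, 6.95 to 26.2), 43 of 53 at ETS1 (81.1%, 68.6 to 89.4) and 52 of 65 at FLI1 (80.0%, 68.7 to 87.9), against 60.6% of the whole list. ETV6 was thus below ETS1 and FLI1 among the better supported loops too, with intervals that did not overlap. These intervals treat loops as independent, which loops that share an anchor are not. In all, 51 loops labelled CTCF touched the windows of both ETS1 and FLI1, so those genes are not separate observations either. The difference between the genes was not tested, and nor was the part that the peak input of MAPS had in it.

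**Figure D4:**
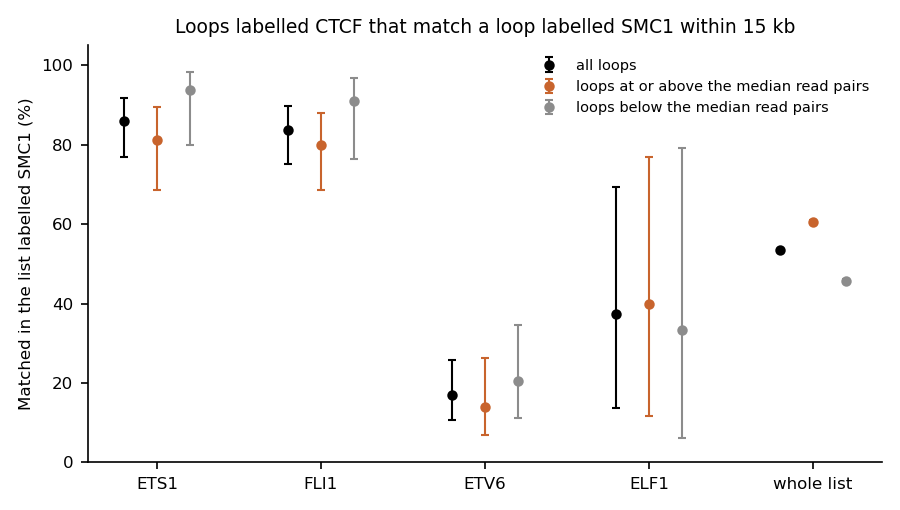
Share of loops labelled CTCF (%) that match a loop labelled SMC1 within 15 kb, for the window of each gene and for the whole list, with 95% Wilson intervals (too narrow to see for the whole list). ETS1 and FLI1 stand at 80% or more and ETV6 at 20.5% or less, whether loops with at least 23 read pairs or fewer are taken.

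Peaks also differed in how often they lay in loop anchors (3D peaks). In the list labelled CTCF 97 of the 156 SMC1 peaks (62.2%) and 49 of the 68 CTCF peaks (72.1%) were 3D peaks, against 51.2% and 55.3% of all peaks. Among anchors labelled SMC1 it was 40 of 156 (25.6%) and 19 of 68 (27.9%), against 22% and 28%. For ETV6 the counts of SMC1 peaks were 34 of 60 and 6 of 60, and for FLI1 26 of 32 and 16 of 32. ELF1 had 12 of 31 and 6 of 31. Since MAPS took peaks as input, these shares are not independent of the peak calls.

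Set against the other 24 ETS genes, the 4 genes had more SMC1 peaks per 100 kb, with a median of 11.6 against 6.75, and a lower share with CTCF, with a median of 31.9% against 54.7%. The other ETS genes are shorter, with a median length of 28.7 kb, and their share with CTCF is near the 53.8% of all protein-coding genes. Neither feature was particular to the 4 genes, since ERF (12.5), ETV2 (12.3), FEV (11.3), ETV3 (10.6), ETV3L (9.98) and SPIB had more SMC1 peaks per 100 kb than FLI1 and ELF1. The share with CTCF was below that of all 4 genes at ELK3 (1 of 18, 5.56%) and ETV5 (4 of 18, 22.2%), and it was low at EHF (28.6%) and SPDEF (33.3%) too. Of these 24, 22 had an SMC1 peak at a start and 16 a CTCF peak, and 11 had a start loop labelled SMC1 and 17 labelled CTCF. SPI1 and SPIB, which encode the B-cell factors PU.1 and Spi-B, had 9.39 and 9.89 SMC1 peaks per 100 kb, like FLI1 and ELF1, but 61.9% and 66.7% of them overlapped CTCF. ETS2 and ERG, the close relatives of ETS1 and FLI1, lie beside each other on chromosome 21 and had 3.64 and 2.70 SMC1 peaks per 100 kb and 0 start loops in both lists. ELF4, the close relative of ELF1, had 7.29 per 100 kb, 55.6% with CTCF, and 9 start loops labelled CTCF against 0 labelled SMC1.

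**Figure D5:**
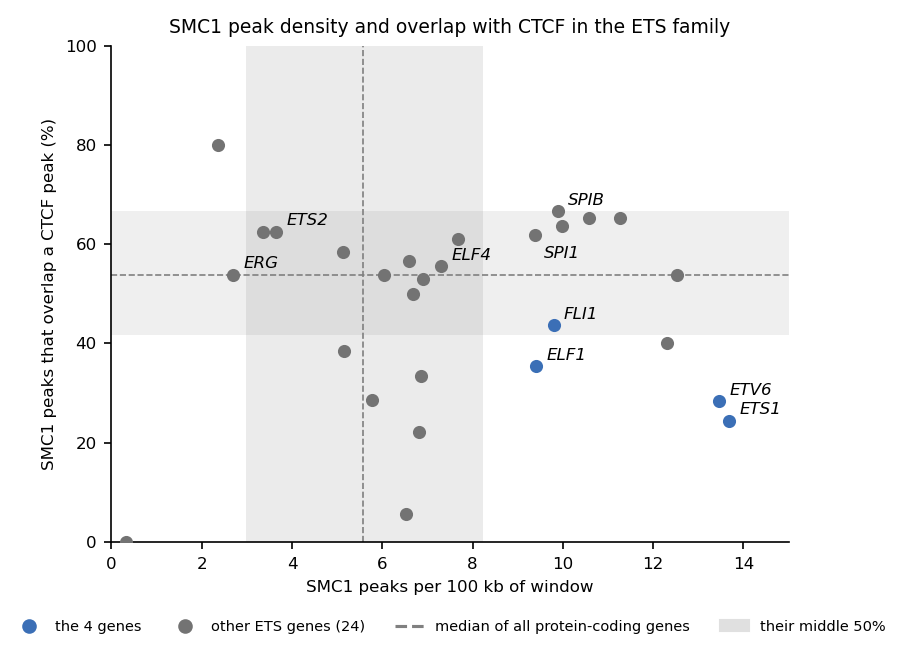
SMC1 peaks per 100 kb of window (x axis) against the share of them that overlap a CTCF peak (y axis, %), 1 point per ETS gene, with the median (dashed) and the middle 50% (grey) of all protein-coding genes. The 4 genes lie at 9.41 or more on the x axis, and ETV6 and ETS1 lie lowest among the genes at that density.

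Across 5 measures (SMC1 and CTCF peaks per 100 kb, the share with CTCF and the start loops of both lists, each as a percentile rank), the genes nearest to each member among 19176 protein-coding genes were named. BMF, with 14 SMC1 peaks per 100 kb and 3 and 12 start loops labelled SMC1 and CTCF, and CDV3 were nearest to ETS1. OSCP1, with 9.80 per 100 kb and 22 and 29 start loops, and PLA2G6 were nearest to FLI1. EBF1, with 12.7 per 100 kb and 3 and 26 start loops, and TMEM154 were nearest to ETV6. PDCD6, with 9.45 per 100 kb and 2 and 2 start loops, and PITPNM2 were nearest to ELF1. The distances in rank were 2.82 to 7.65 percentile points, and likeness in these measures says nothing of function.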

How the data were processed

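HG00731 cells were assayed by HiChIP in 2 biological replicates for SMC1 (FA-EGS) and 2 for CTCF (FA), and the authors pooled the replicates of a target before calling peaks and loops. BWA-MEM alignment to hg38, a MapQ filter and removal of duplicates came first, followed by MACS3 3.0.1 with no input library. The fold of a peak in the deposited files is a ratio of the summit pileup to the local background, and its significance was deposited as the -log10 of the q-value, 2.00 or more. For loops between bins of 5 kb, called by MAPS in nf-HiChIP (MAPS version not given in the sources used here), the authors deposited a count of read pairs, at least 12, and the signal expected by the regression. The study gave the called peaks to MAPS as input and states that its loops have an anchor enriched in the target. Loop counts and the peaks found in anchors therefore depend in part on the peak calls. The score, p-value and cluster columns of the deposited files were not used. The lists carry no depth for single replicates.

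Starts came from GENCODE release 44 (hg38), and every peak and loop ended within its hg38 chromosome. Overlap meant 1 bp or more, and loops matched when both anchors lay within 15 kb. Letters were searched on both strands, with overlapping matches kept. Intervals are Wilson (shares), rank (medians) and exact Poisson (read pairs), at 95%. The functions were tested on simulated data. Python 3.11.15, pandas 2.3.3, SciPy 1.17.1 and pysam 0.24.0 were used. Named peaks had the highest -log10 q, and named loops the most read pairs, in a window or at a start. The anchors at which loops gathered, the loops between ETS1 and FLI1 and the printed sequences were chosen after their values were seen. Genes, lists and rules were chosen with earlier results of these data known. Alternatives were stricter q-values, narrower windows, other overlap, distance and match rules, other starts, and exchanged loop lists.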

Additional observations from a re-analysis of the deposited data

How the results depend on the processing

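Of 34 alternatives to 9 results, 18 stayed within 1.5 times the count or within the interval of the share. With -log10 q of at least 10, 85 SMC1 and 33 CTCF peaks were left in the windows. Asking for an overlap of at least 50% of the SMC1 peak gave 14.7% with CTCF. Loops with at least the median read pairs of their list numbered 25 (SMC1) and 137 (CTCF) in the windows, and 14 labelled SMC1 at starts. Canonical starts alone gave 3 and 26 start loops and, in an alternative added after seeing the data, starts of protein-coding transcripts gave 7 and 43. Without tolerance 80% of loops labelled SMC1 matched. When each target was given the other loop list, the counts became 234 and 60 in the windows and 73 and 25 at starts, and the matched share 56.8%. The CTCF letters anywhere in the peak, also added after seeing the data, gave 11.8% against 4.41%, within the interval of the latter. No paired analysis was possible because each list pools both replicates, and leaving out a replicate was not possible for the same reason. Loop results keep their values but change target when the labels are exchanged, as the loop and anchor counts ask, and those on FLI1 starts rest mostly on 1 non-coding start. The unequal number of read pairs limits what absence from the list labelled SMC1 can show, and so does the peak input of MAPS. Read as CTCF loops, the loops of that list have an anchor enriched in CTCF. Pairs of bins with SMC1 peaks alone were therefore not open to it.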
